A study of Mus musculus with 4 samples.

Results

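A set of 9 marker genes of the caudal and lateral ganglionic eminences and of septal or preoptic neurons were followed in neurons made from mouse ES cells. They were taken by symbol, and all 9 were found among the 34968 gene symbols shared by the 4 bulk RNA-seq libraries. The genes are Nr2f1, Nr2f2, Prox1 and Htr3a for the caudal eminence, Sp8, Sp9 and Tshz1 for the lateral eminence, and Zic1 and Zic4 for the septum and preoptic area. Sp8 also marks caudal eminence neurons. The libraries came from tdTomato+ neurons sorted on day 12 from embryoid bodies of 2 ES cell lines. Both lines descend from a parental Dlx6-Cre; Ai9 line of the C57/BL6 strain, in which Cre driven by Dlx6a regulatory sequence switches on tdTomato in subpallial neurons. Both also carry Nkx2-1 under a Nestin promoter together with a tetracycline transactivator, and both were grown with the Wnt inhibitor XAV-939 and the Sonic hedgehog agonist SAG. The N/D line has Dlx2 behind a transactivator-responsive promoter, and the N/D/S line has Dlx2 and V5-tagged St18 there. Lines were expanded from picked clones, so each line stands for its clone. Each line gave 2 libraries, numbered 1 and 2 and written N/D 1, N/D 2, N/D/S 1 and N/D/S 2, and nothing in the labels says whether these came from separate differentiations. The p-values below therefore measure only the spread between these libraries. Levels are given in TPM, an abundance per transcript scaled by its length and by the library total.

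The subpallium is divided into eminences that each send out their own GABAergic neurons. The medial eminence is marked by Nkx2-1 and Lhx6. The caudal eminence makes cortical interneurons that express the orphan nuclear receptors Nr2f1 and Nr2f2, the homeobox factor Prox1 and often the serotonin-gated channel subunit Htr3a. The lateral eminence makes striatal and olfactory bulb neurons and uses the zinc finger factors Sp8, Sp9 and Tshz1, while the Zic zinc finger factors mark the septum and parts of the preoptic area. None of these genes is strictly confined to its eminence, and Nr2f1, Nr2f2 and Sp9 are also used in medial eminence neurons. Since the lines were driven by Nkx2-1, the levels of genes that are shared with the medial eminence cannot be read as those of a neighbouring program.

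Upstream sequence is shown for 5 of the genes. Zic1 and Zic4 are neighbours that sat high and low in the same libraries, Prox1 and Sp8 had their highest and next highest values in the same pair of libraries, and Sp9 is the paralog of Sp8. RefSeq start sites on GRCm38.p6 were used, and 7 of the 9 genes had a window. Bases annotated as untranslated region were left off, so that the stretch ends before them. Capitals mark a core bound by the Myt1 family to which St18 belongs (AAGTT), a GC box of the kind bound by Sp factors (GGGCGG), the box CCAAT, and a core bound by Nkx2-1 (CAAGTG), each searched on both strands, so that a match on the other strand reads as its reverse complement.
Zic1, chr9:91365811-91366018, minus strand: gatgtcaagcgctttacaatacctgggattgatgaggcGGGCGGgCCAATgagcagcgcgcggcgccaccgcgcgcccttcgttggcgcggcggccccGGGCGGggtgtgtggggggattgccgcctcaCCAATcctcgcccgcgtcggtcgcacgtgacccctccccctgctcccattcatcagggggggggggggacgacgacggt
Zic4, chr9:91368722-91368811, plus strand: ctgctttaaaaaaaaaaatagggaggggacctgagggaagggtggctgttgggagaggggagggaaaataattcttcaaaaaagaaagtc
Prox1, chr1:190170828-190171077, minus strand: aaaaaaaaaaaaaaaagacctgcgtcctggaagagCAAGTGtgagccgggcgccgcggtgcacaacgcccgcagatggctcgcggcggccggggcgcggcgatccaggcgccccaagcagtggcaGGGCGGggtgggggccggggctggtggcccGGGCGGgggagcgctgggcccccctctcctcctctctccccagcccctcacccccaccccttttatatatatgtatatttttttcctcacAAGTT
Sp8, chr12:118846079-118846328, plus strand: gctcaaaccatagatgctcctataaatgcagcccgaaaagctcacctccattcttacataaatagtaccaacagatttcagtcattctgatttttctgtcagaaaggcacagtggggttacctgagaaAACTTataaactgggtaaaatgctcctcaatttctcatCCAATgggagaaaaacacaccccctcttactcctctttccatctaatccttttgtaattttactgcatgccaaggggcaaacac
Sp9, chr2:73271676-73271924, plus strand: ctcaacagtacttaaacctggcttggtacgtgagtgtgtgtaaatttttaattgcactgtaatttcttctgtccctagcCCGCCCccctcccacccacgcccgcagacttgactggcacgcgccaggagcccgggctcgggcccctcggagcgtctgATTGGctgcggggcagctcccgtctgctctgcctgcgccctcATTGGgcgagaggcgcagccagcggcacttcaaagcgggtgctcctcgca

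The Zic1 stretch of 208 bases held 2 GC boxes and 2 CCAAT boxes, which at least once occur in 26.2% and 29.6% of the same stretch of all 32851 RefSeq windows. It held 26 CpG dinucleotides, and 95.2% of all windows held fewer. The Zic4 stretch, cut to 90 bases because annotated untranslated sequence follows, held none of the searched letters and 0 CpG dinucleotides. Sp8 and Sp9 also differed in CpG content. The Sp8 stretch had 1 CpG and 40.8% GC, with 1 AAGTT core and 1 CCAAT box, whereas the Sp9 stretch had 18 CpG and 62.2% GC, with 1 GC box and 2 CCAAT boxes. The Prox1 stretch had 20 CpG, 2 GC boxes, 1 AAGTT core and 1 CAAGTG core. AAGTT occurs in 35.3% and CAAGTG in 11.6% of all windows of 250 bases, so these matches describe the letters only.

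Before the genes were compared, the libraries were checked against their labels. All 8 neuron markers and all 9 subpallial GABAergic genes had at least 1 TPM in each of the 4 libraries. St18 read 44.45 and 15.9 TPM for N/D/S, beside 28.5 and 26.6 TPM for N/D, in replicate order, so it did not part the lines and every direction below rests on the labels. The library labelled N/D 1 stood apart. Of 6139 genes that reached 10 TPM in all 3 others, 613 (9.99%) had a value of 0 there, against 0 to 2 genes for the same comparison in each other library. Of the 12975 genes that had at least 1 TPM in at least 2 libraries and were tested, 42.1% were under 1 TPM in that library, against 2.00% to 10.7% in the others. The tables also differed by number. Those of N/D 1 and N/D/S 1 held the same 35195 symbols and those of N/D 2 and N/D/S 2 the same 35202, with 203 symbols only in the former and 210 only in the latter. TPM files hold no read counts, so depth is unknown and a value of 0 has no detection limit. In bulk RNA, fewer cells of a type and less RNA per cell cannot be told apart.

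By mean TPM over the 4 libraries, the order of the genes was Nr2f1 (36.6 ± 28.5, SD, n = 4), Nr2f2 (21.2 ± 7.21), Sp9 (20.1 ± 17.4), Zic4 (7.51 ± 9.35), Tshz1 (5.86 ± 4.17), Prox1 (4.35 ± 3.55), Sp8 (3.39 ± 3.95), Zic1 (2.70 ± 3.43) and Htr3a (0.436 ± 0.731). The ranges of every pair of neighbours in this order overlapped. Only Zic1 over Htr3a held in all 4 libraries as an order of neighbours, and the leading gene differed. It was Nr2f1 in both libraries numbered 1, Sp9 in N/D 2 and Nr2f2 in N/D/S 2. Of the 9 genes, 6 were under 1 TPM in N/D 1, 3 in N/D/S 1 and 1 in each library numbered 2.

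**Figure D1:**
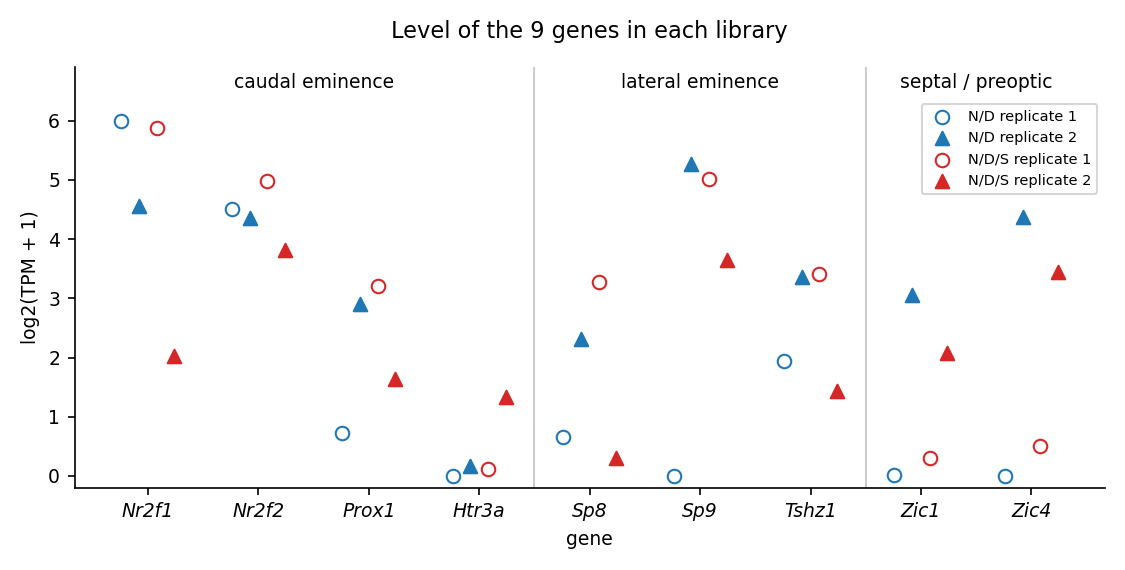
Level of the 9 genes on the log2(TPM + 1) scale (vertical axis) for each gene (horizontal axis), with 1 point per library, blue for N/D and red for N/D/S, open circles for replicate 1 and filled triangles for replicate 2. Nr2f2 varied least, from 13.1 to 30.5 TPM, while Zic1 and Zic4 were near 0 in both libraries numbered 1 and Sp9 was listed at 0 only in N/D 1.

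Nr2f1 (COUP-TFI), an orphan nuclear receptor that patterns the caudal eminence and cortex, lies on chromosome 13 from 78188973 to 78199757. It had 62.6 and 22.7 TPM in N/D, against 57.9 and 3.10 TPM in N/D/S, in replicate order. The other 3 libraries were thus well above that labelled N/D/S 2, and the lines overlapped. On the log2(TPM + 1) scale the difference of N/D/S from N/D, given below as the log2 fold change, was −1.32 with a standard error of 1.45. In limma its p was 0.392 before and 1 after Benjamini-Hochberg adjustment. Without N/D/S 2 the value was 0.60. Nr2f1 was the only one of these genes at its highest in the library labelled N/D 1, where it stood at percentile 81.0 among the genes above 0. Its percentile in the others was 71.3 for N/D and 84.2 and 44.2 for N/D/S.

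Nr2f2 (COUP-TFII), its paralog on chromosome 7 from 70351944 to 70366735, marks caudal eminence and preoptic neurons. It had 21.9 and 19.4 TPM in N/D, against 30.5 and 13.1 TPM in N/D/S. Both N/D values lay between the N/D/S values. The log2 fold change was −0.04 (standard error 1.00, adjusted p = 1 from limma). It was 0.044 without N/D 1, 0.54 without N/D/S 2 and 0.093 under quantile normalization. The highest level was 2.33 times the lowest, the smallest ratio among the genes above 0 in every library. Within a library, the ratio of Nr2f1 to Nr2f2 was 2.86 and 1.17 in N/D, against 1.90 and 0.237 in N/D/S. The paralogs were therefore in the opposite order in the library labelled N/D/S 2 alone. Of their 31-base words in GENCODE M21 transcripts, 39 were shared, which is 0.766% of those of Nr2f1 and 0.456% of those of Nr2f2. Nr2f2 also shared 613 of its 8550 words with B130024G19Rik, which overlaps it on the opposite strand. The labels do not give a stranded count, so reads from overlapping antisense transcripts cannot be told apart.

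Prox1, a homeobox factor kept on in caudal eminence interneurons as they mature, lies on chromosome 1 from 190118035 to 190170714. It had 0.656 and 6.44 TPM in N/D, against 8.20 and 2.10 TPM in N/D/S. Its high values came from N/D/S 1 and N/D 2, 1 of each line. Between the lines the log2 fold change was 0.61 (standard error 1.19, adjusted p = 1 from limma), and it was −0.48 without N/D 1 and −0.18 without N/D/S 1. Against Lhx6, a homeobox factor of medial eminence neurons, Prox1 stood at a ratio of 0.0637 to 0.0860 in the other 3 libraries and 0.0213 in N/D 1.

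Htr3a, the serotonin-gated channel subunit of caudal eminence interneurons, lies on chromosome 9 from 48899213 to 48911099. It had 0 and 0.122 TPM in N/D, against 0.0914 and 1.53 TPM in N/D/S. Only that last library passed 1 TPM, so Htr3a did not pass the filter and was not tested.

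Sp8, a zinc finger factor of the dorsal lateral eminence and of caudal interneurons, lies on chromosome 12 from 118846329 to 118852576. It had 0.576 and 3.999 TPM in N/D, against 8.74 and 0.241 TPM in N/D/S. As for Prox1, the higher values were those of N/D/S 1 and N/D 2. Its log2 fold change was 0.31 (standard error 1.32, adjusted p = 1 from limma), and it was −0.52 without N/D 1.

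Sp9, the paralog of Sp8 used across the lateral and medial eminences, lies on chromosome 2 from 73271925 to 73284706. It had 0 and 37.4 TPM in N/D, against 31.4 and 11.5 TPM in N/D/S. Both extremes belonged to N/D. Its log2 fold change was 1.70 (standard error 1.74, adjusted p = 1 from limma). As the log2 ratio of mean TPM it was only 0.20, below the 0.97 of Sp8 and the 0.54 of Prox1. Without the library labelled N/D 1 it was −0.93, with both N/D/S libraries below the N/D library that was left, as were 32.2% of all genes tested. Without N/D 2 it was 4.33 (adjusted p = 0.00086 in limma), against a single library at 0, so that the pseudocount of 1 sets its size. In that fit 2664 genes were higher and 245 lower in N/D/S at an adjusted p under 0.05, and every gene was given the same spread. Sp9 was 1 of the 613 genes at 0 in N/D 1 despite at least 10 TPM elsewhere. Its neighbour Cir1, which overlaps it by 1602 bases on the opposite strand and shares 242 of the 5010 words of Sp9, had 7.96 TPM in that library and 7.91 to 27.3 TPM in the others.

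The balance of the Sp paralogs moved with the library. The ratio of Sp9 to Sp8 was 9.36 in N/D 2 and 3.59 and 47.8 in N/D/S. In the remaining library, where Sp9 was listed at 0, Sp8 was the higher of the pair. Only 14 of their 31-base words were shared, 0.307% of those of Sp8 and 0.279% of those of Sp9. Relative to Dlx1, a homeobox factor of subpallial GABAergic neurons, Sp9 lay between 0.0604 and 0.118 in the 3 libraries where it was above 0, and Sp8 between 0.00246 and 0.0168 in all 4.

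**Figure D2:**
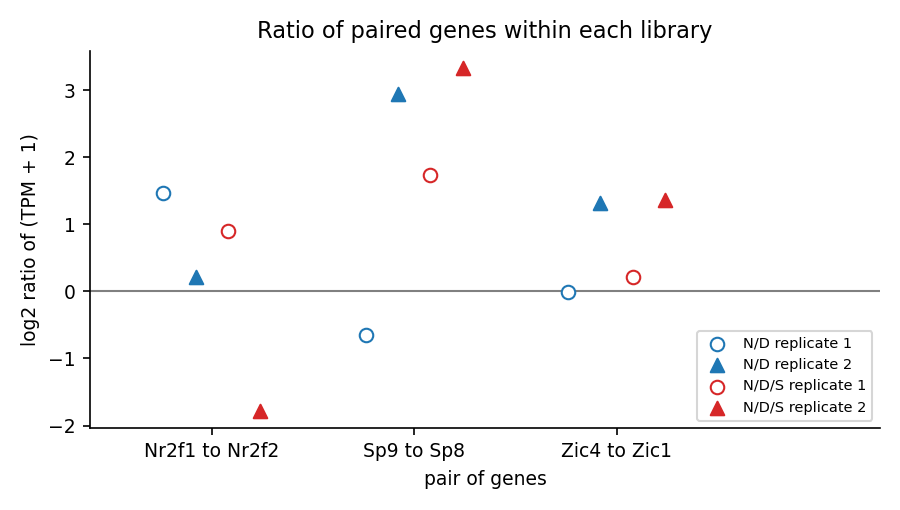
Log2 ratio of (TPM + 1) of Nr2f1 to Nr2f2, Sp9 to Sp8 and Zic4 to Zic1 (vertical axis) for each pair of genes (horizontal axis), with 1 point per library, coloured by line and shaped by replicate number. Nr2f1 to Nr2f2 was below 0 only in N/D/S 2 (−1.78) and Sp9 to Sp8 only in N/D 1 (−0.66), where Zic4 to Zic1 was −0.0083.

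Tshz1, a zinc finger factor of olfactory bulb and striatal neurons of the lateral eminence, lies on chromosome 18 from 84011627 to 84087706. It had 2.85 and 9.25 TPM in N/D, against 9.63 and 1.70 TPM in N/D/S. It shared with Prox1 and Sp8 the high pair of N/D/S 1 and N/D 2. Its log2 fold change was −0.23 (standard error 1.15, adjusted p = 1 from limma), and it was 0.76 without N/D/S 2 and 0.48 without N/D 2. The ratio of Tshz1 to Dlx1 varied less than those of Sp8 and Sp9, from 0.0156 to 0.0207 in the 4 libraries, while Dlx1 itself ran from 97.95 to 519.9 TPM. No 31-base word of Tshz1 or Htr3a was found in another gene.

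Zic1 and Zic4 are zinc finger factors that neighbour each other on chromosome 9, Zic1 on the minus strand from 91358058 to 91365810 and Zic4 on the plus strand from 91362413 to 91389348. Their RefSeq start sites are 3204 bases apart and point away from each other, and their annotated spans overlap by 3398 bases. Zic1 had 0.00578 and 7.35 TPM in N/D, against 0.230 and 3.22 TPM in N/D/S. Zic4 had 0 and 19.8 TPM in N/D, against 0.423 and 9.86 TPM in N/D/S. For both genes the libraries numbered 2 were above 1 TPM and those numbered 1 below it, in each line. Over all genes tested, 14.7% had both libraries numbered 2 above both numbered 1 and 14.8% the reverse. Among the 8 tested genes Zic1 and Zic4 had the former placement and Nr2f1 and Nr2f2 the latter. Since Zic1 and Zic4 reached 1 TPM only in the libraries numbered 2, the filter could admit them only with that placement. The labels do not say what a number marks, but the tables of one number held the same symbols, and whether it also marks a differentiation, sort or sequencing batch was not tested. The line difference (log2 fold change) was −0.35 for Zic1 (standard error 1.34) and −0.21 for Zic4 (standard error 1.70), each with an adjusted p of 1 from limma. Without N/D 1 the values were −1.87 and −2.40, and without N/D/S 1 they were 0.54 and 1.25. Zic4 exceeded Zic1 by a ratio of 2.69 in N/D 2 and of 1.84 and 3.07 in N/D/S. They shared 46 words of 31 bases, 0.81% of those of Zic1 and 0.445% of those of Zic4.

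**Figure D3:**
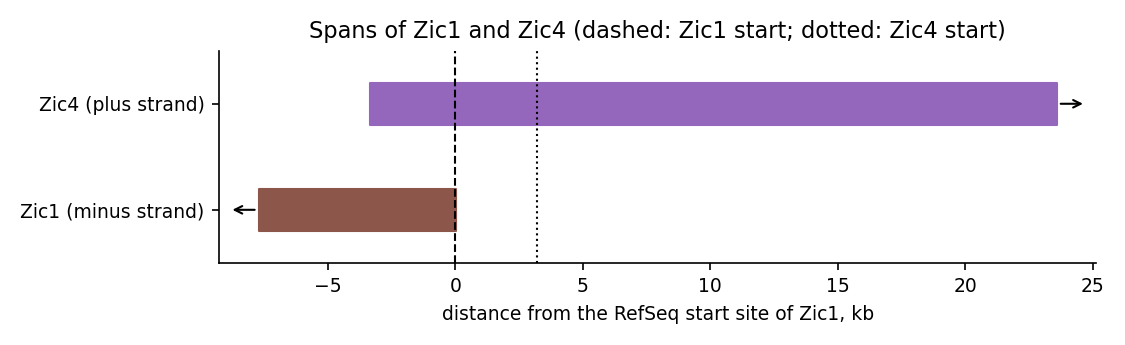
Annotated spans of Zic1 and Zic4 along chromosome 9, as distance in kb from the RefSeq start site of Zic1 (horizontal axis), 1 row per gene (vertical axis), with arrows for the direction of transcription. The start sites (dashed and dotted lines) are 3204 bases apart and the spans overlap by 3398 bases.

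Pluripotency and glial markers were high in the same libraries as Zic1 and Zic4, while other lists varied in direction from gene to gene. The summed level of 5 pluripotency markers was 0.247 TPM (N/D) and 3.597 TPM (N/D/S) in the libraries numbered 1, against 184.3 and 292.4 TPM in those numbered 2. Dppa5a made up most of it, at 164.2 and 265.5 TPM in the libraries numbered 2, and Pou5f1 had 7.55 and 19.5 TPM there, N/D first. Of the 5 markers, 4 were at 0 in N/D 1. The 9 glial markers summed to 0.0807 and 198.2 TPM in N/D, against 19.5 and 78.6 TPM in N/D/S. In that order 8, 0, 2 and 1 of the 9 were at 0. A few genes carried the sums of the remaining lists. The neuron markers summed to 4133 and 4733 TPM in the libraries numbered 1 against 3086 and 3297 TPM in those numbered 2, N/D first, mostly from Tubb3 and Stmn2. Stmn2 was among the 2 of the 8 genes placed so, and Tubb3 among the 6 with neither placement. Progenitor markers summed to 488.6 and 519 TPM in the libraries numbered 1 and 1227 and 711.3 TPM in those numbered 2, N/D first, which came mostly from Fabp7 (133.6 and 179.1, then 906.5 and 505.6 TPM), while 3 of the 9 genes were placed the other way. Midbrain and hindbrain markers summed to 31.1 and 9.39 TPM in N/D, against 34.8 and 6.42 TPM in N/D/S, and En1 made up 30.05 TPM of the first. It was the 1 gene of 3 tested with both libraries numbered 1 on top. Hoxa2 (0 and 2.42 TPM in N/D, 11.9 and 2.80 TPM in N/D/S) and En2 (0.00467 and 1.18 TPM, then 1.61 and 0.557 TPM) were higher in number 2 for N/D and in number 1 for N/D/S. Pallial glutamatergic markers summed to 17.4 and 9.13 TPM, then 29.95 and 4.08 TPM, led by Slc17a6 in both libraries numbered 1 (13.8 and 18.4 TPM). Neurog2 had 0 and 5.64 TPM in N/D, against 10.7 and 2.79 TPM in N/D/S. Only these 2 of the 8 listed genes passed the filter. Slc17a7 stayed under 1 TPM in every library, and Emx1, named after its values were seen, was at 0 throughout. Diencephalic markers summed to 23.0 and 73.1 TPM in N/D, against 22.8 and 52.5 TPM in N/D/S. There Six6 (0.00409 and 61.5 TPM, then 4.78 and 40.2 TPM) followed the Zic pattern and Otp (5.76 and 0.395 TPM, then 9.32 and 0.0358 TPM) the reverse. Of the 38.8 TPM of mesenchymal, endothelial and blood markers in N/D 1, Pecam1 gave 38.75 TPM, while Col1a1 (0.0354 TPM) and Col1a2 (0.00773 TPM) were at their lowest there. The part of other cells in the Zic levels was not tested.

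**Figure D4:**
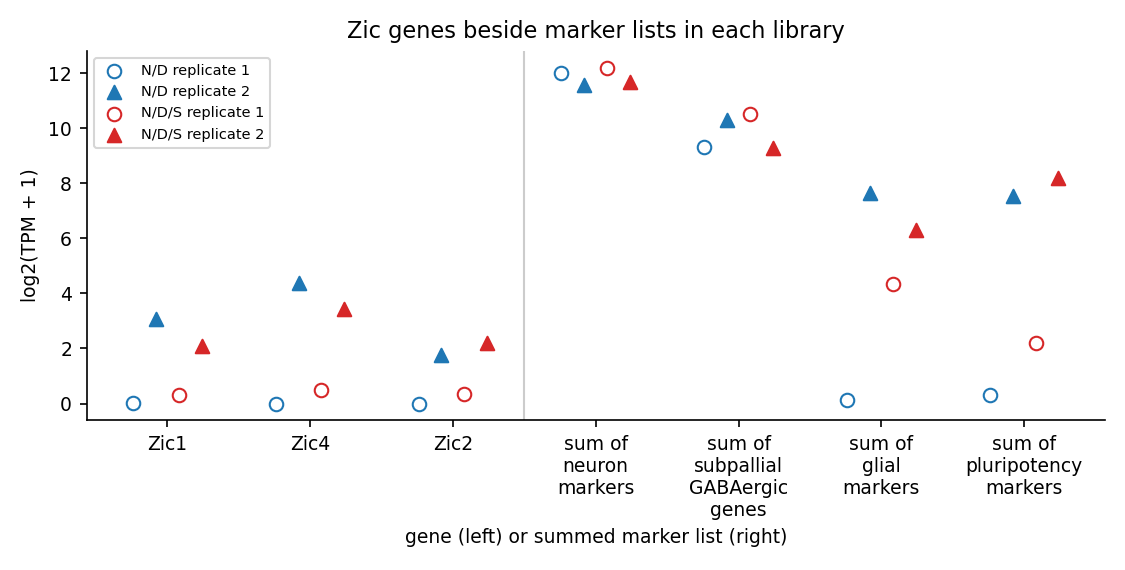
Level on the log2(TPM + 1) scale (vertical axis) of 3 Zic genes and of the summed TPM of 4 marker lists (horizontal axis), with 1 point per library, coloured by line and shaped by replicate number. Zic1, Zic4 and the pluripotency list each had both libraries numbered 2 above both numbered 1, while the summed neuron markers, mostly Tubb3 and Stmn2, lay between 3086 and 4733 TPM, with 6 of the 8 genes in neither placement by number.

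Between the lines, 0 of the 8 genes tested passed an adjusted p of 0.05, and 0 of all 12975 genes did (0%). At an unadjusted p under 0.05 the numbers were 0 of the 8 genes and 8 of all genes (0.0617%). With 2 libraries per line, an exact permutation test of 1 gene (two-sided) cannot go below p = 0.333. In 0 of the 8 genes were both N/D/S libraries above both N/D libraries, where 8.69% of all genes tested were so placed, and in 0 were both below, against 8.23%. The fold change was above 0 for 3 of the 8 genes (37.5%) and for 61.4% of all genes, with a median of −0.13 against 0.26. Relative to that median the differences were −1.58 for Nr2f1, −0.30 for Nr2f2, 0.35 for Prox1, 0.049 for Sp8, 1.44 for Sp9, −0.49 for Tshz1, −0.61 for Zic1 and −0.47 for Zic4. Quantile normalization moved the median of all genes to −0.049. Under that scaling Tshz1 and Zic1 were lower in both N/D/S libraries, 2 of the 8 genes beside 12.2% of all genes, and Prox1 and Sp8 turned to −0.48 and −0.66.

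Within each replicate number the lines were compared library against library. In replicate 1, 7 of the 8 tested genes had their higher value in N/D/S, and in replicate 2 all 8 had their lower value there. The exception in replicate 1 was Nr2f1, lower in N/D/S by a log2 difference of −0.11 in replicate 1 and −2.53 in replicate 2. Sp9 had the largest swing, 5.02 in replicate 1 and −1.62 in replicate 2, and Sp8 had 2.63 and −2.01. The 7 genes with such a change of sign are 87.5% of those tested, beside 56.6% of all genes tested with the same pair of signs. A further 15.9% of all genes tested were higher in N/D/S in both replicates, and 17.9% lower in both, as Nr2f1 was. Sp8 reached 1 TPM only in N/D 2 and N/D/S 1, so the filter could admit it only with its pair of signs. The library labelled N/D 1, in which 42.1% of tested genes were under 1 TPM, is the reference of each replicate 1 difference.

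**Figure D5:**
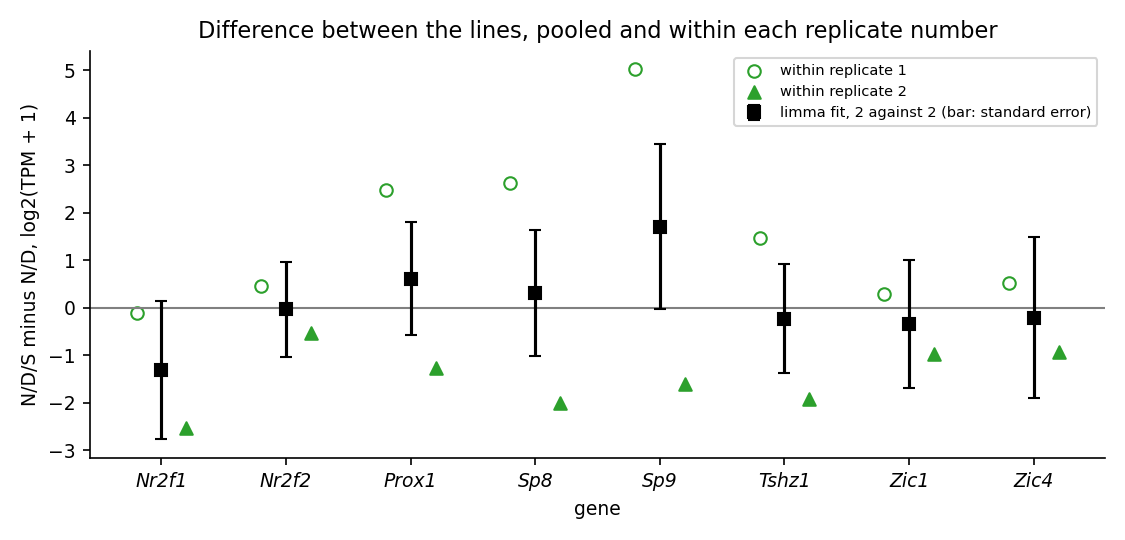
Difference between N/D/S and N/D on the log2(TPM + 1) scale (vertical axis) for the 8 tested genes (horizontal axis), with black squares for the fit on 2 against 2 libraries (bars, standard error), open green circles for replicate 1 alone and green triangles for replicate 2 alone. All 8 triangles are below 0 and 7 of the 8 circles are above it. Of all genes tested, 56.6% had the signs of those 7, 15.9% were above 0 in both replicates and 17.9% below 0 in both.

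Other genes of the same territories were read from lists. Of 10 tested genes of caudal eminence neurons, 5 had a fold change above 0 and 0 passed the adjusted threshold, with a median log2 fold change of 0.09. Calb2, the calcium-binding protein calretinin, had 115.4 and 35.4 TPM in N/D, against 92.9 and 12.9 TPM in N/D/S. Npas1, a basic helix-loop-helix factor, had 33.5 and 8.87 TPM and then 30.1 and 15.1 TPM. Both were higher in the libraries numbered 1, as was Nr2f1, and they were the 2 genes of the 10 placed so (20%, beside 14.8% of all genes). Another 2, Cck (0 and 1.87 TPM in N/D, 0.102 and 4.17 TPM in N/D/S) and Reln (0.334 and 5.11 TPM, then 2.18 and 3.51 TPM), named after their values were seen, were placed the opposite way (20%, beside 14.7%). Id2, a helix-loop-helix inhibitor with the highest mean of the list, had 36.7 and 118.2 TPM in N/D, against 60.8 and 43.3 TPM in N/D/S, and was not among them. Cck reached 1 TPM only in the libraries numbered 2, so the filter could admit it only with its placement. Adarb2, an RNA editing family protein of caudal interneurons, had 8.72 and 10.6 TPM in N/D and 42.6 and 1.23 TPM in N/D/S.

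Of 16 tested lateral eminence genes, 11 had a fold change above 0 (68.8%) and 0 passed, with a median of 0.52. The homeobox factors Meis1 and Meis2 were higher in both libraries numbered 1, as were 4 of the 16 genes (25%, beside 14.8% of all genes), with 1 of the 16 placed the opposite way. Meis1 had 133.1 and 19.4 TPM in N/D and 83.1 and 7.14 TPM in N/D/S, and Meis2 had 74.8 and 13.4 TPM and then 80.2 and 3.74 TPM. Ebf1, a factor of striatal neurons, had 41.0 and 6.99 TPM in N/D and 45.4 and 2.31 TPM in N/D/S. Isl1, of striatal and cholinergic neurons, had 1.26 and 63.2 TPM in N/D and 151.5 and 20.3 TPM in N/D/S, with the high pair of Prox1, Sp8 and Tshz1. The progenitor factors Gsx1 and Gsx2 were the 2 genes of the 16 with both N/D/S libraries on top, beside 8.69% of all genes, and both were at 0 in N/D 1. They had 3.61 and 2.95 TPM against 0 and 1.78 TPM for Gsx1, and 2.68 and 1.34 TPM against 0 and 0.443 TPM for Gsx2. Gsx2 reached 1 TPM only in the N/D/S libraries, so the filter could admit it only with that placement.

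Of 10 tested septal and preoptic genes, 9 had a fold change above 0 and 0 passed, with a median of 0.55. The list had 10 of its 12 genes at 0 in N/D 1 and summed to 0.453 TPM there, against 28.9 to 62.3 TPM in the others. Fgf15, a secreted growth factor of midline progenitors, had 0.447 and 12.0 TPM in N/D and 1.03 and 16.5 TPM in N/D/S, and Zic2, named after its values were seen, had 0 and 2.42 TPM and then 0.269 and 3.58 TPM. Both had the libraries numbered 2 above those numbered 1, like Zic1 and Zic4. Of the 10 tested genes of the list, 6 were so placed (60%, beside 14.7% of all genes). Zic2 and Fgf8 among these reached 1 TPM only in the libraries numbered 2, so the filter could admit them only with that placement. Zic5 was not so placed and did not pass the filter. Fgf8 and Zic5 were also named after their values were seen. The preoptic homeobox factors Hmx2 and Hmx3 were at 0 in N/D 1 and between 1.72 and 7.07 TPM in the other libraries.

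Of 11 tested paralogs of the 9 genes, 9 had a fold change above 0 and 0 passed, with a median of 0.38. Nr2f6, the third COUP-related receptor, was the 1 paralog of the 11 with both N/D/S libraries on top, a share near the 8.69% of all genes, at 65.2 and 53.0 TPM against 23.0 and 42.3 TPM in N/D. Tshz2 had 12.9 and 8.31 TPM in N/D and 11.9 and 5.70 TPM in N/D/S. For comparison, the medial eminence factor Lhx6 had 30.8 and 75.0 TPM in N/D and 114.9 and 33.0 TPM in N/D/S. In the medial eminence list of 10 tested genes, Nkx6-2 had both N/D/S libraries on top (36.3 and 82.1 TPM against 0 and 29.5 TPM) and Maf had both below (7.47 and 1.35 TPM against 26.7 and 10.5 TPM). Of the 8 neuron markers Tubb3 had both on top and Elavl3 and Rbfox3 both below, and of the 9 progenitor markers Hes5 had both on top and Top2a both below, beside 8.69% and 8.23% of all genes. Hoxa2 of the hindbrain list also had both on top. Lhx6 was above Nr2f1 in 3 libraries, with a ratio of Nr2f1 to Lhx6 from 0.0938 to 0.503, and below it in N/D 1, with a ratio of 2.03. The ratio of Nr2f2 to Lhx6 stayed under 1 in all 4 libraries, from 0.259 to 0.710. Zic4 stood to Lhx6 at 0.264 and 0.299 in the libraries numbered 2 and at 0.00368 in N/D/S 1.

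The genes nearest to each in pattern over the 4 libraries were found by the root mean square difference of log2(TPM + 1), after centring each gene. Over 4 libraries the measure is coarse, and it says nothing of function. Nr2f2 had 489 of 12974 genes within 0.25, Prox1 369, Tshz1 280, Sp9 104 and Sp8 81. The nearest were Vgll4 and Copg1 for Nr2f2, Arf3 and Ifnar1 for Prox1, Plaa and Smarca5 for Tshz1, Tars and Mkrn3 for Sp9, and Gm14048 and Ror2 for Sp8. Nr2f1 had 3 genes within 0.25, with Cog5 (0.03) and Vcan (0.21) nearest. Zic1 had 11, of which the pluripotency marker Zfp42 (0.12) and the matrix gene Lum (0.13) were nearest. Zic4 had 0, and its nearest were Bpifb9a (0.25) and Wfdc18 (0.36). Among the 8 tested genes themselves, Sp8 and Tshz1 were the closest pair (0.45), followed by Prox1 with Tshz1 (0.52) and Prox1 with Sp8 (0.55), then Zic1 with Zic4 (0.62).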

How the data were processed

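Poly-A selected RNA of sorted tdTomato+ neurons was sequenced as paired-end reads, and the authors pseudoaligned them with kallisto 0.44.0, with GRCm38 in the submitters' processing notes. The release of the transcriptome index, the strand setting and the way transcripts were joined into genes are not given in the sources used here. The authors deposited 1 TPM value per gene symbol and library. Files were joined on symbol, after 24 symbols turned into dates and 2 duplicated symbols were removed. The plan named limma for TPM, and R 4.3.3 with limma 3.58.1 (lmFit, eBayes) was run on log2(TPM + 1) for genes reaching 1 TPM in 2 libraries or more, N/D/S against N/D, without covariates, with Benjamini-Hochberg adjustment over all 12975 genes and a threshold of 0.05. Fold changes on this scale understate those of low genes. Sleuth, used by the study, needs kallisto output beyond the TPM and was not run. The test was tried first on simulated data. Groups came from the sample titles. The plan set no covariate, since the study names none, with replicate number as a block among the alternatives. The correlation of same-numbered libraries around their line means was 0.02 over tested genes, which does not show whether single genes differed by number. Tables of one number held identical symbols.

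Gene spans and transcripts came from GENCODE M21 (GRCm38), and upstream windows from RefSeq (GRCm38.p6). Words of 31 bases were compared on either strand. Tables and figures used Python 3.11.15, numpy 2.4.6, pandas 2.3.3 and matplotlib 3.10.9. The members and lists were chosen with earlier results of these data known. All 9 genes were named, with at most the 4 highest genes of each other list by mean TPM and any whose lines did not overlap, and the 2 genes nearest in pattern, with 1 listed gene not reported here. The alternatives used pseudocounts of 0.5 and 0.1, other filters and scalings, the ratio of mean TPM, a replicate block, a variance trend and each library left out in turn; the differences within each replicate number were added after the data were seen.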

Additional observations from a re-analysis of the deposited data

How the results depend on the processing

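Since TPM hides the depth, its limit on low genes such as Htr3a and Zic1 was not assessed. For 8 genes, 117 alternative fold changes were computed, of which 24 changed direction and 1 passed the threshold, Sp9 at 4.33 without N/D replicate 2. The cause was not tested. The changed filters, the replicate block and the variance trend leave each fold change as it was, so those alternatives could not change a direction. With the filter at 1 TPM in all 4 libraries, Prox1, Sp8, Sp9, Zic1 and Zic4 were not tested. Fits without a library tested 5 to 8 of the genes and assume that the lone library varies like the pair.

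With one library left out, the log2 fold change ranged from −3.25 to 0.60 for Nr2f1, −0.62 to 0.54 for Nr2f2, −0.48 to 1.69 for Prox1, −0.52 to 1.80 for Sp8, −0.93 to 4.33 for Sp9, −1.22 to 0.76 for Tshz1, −1.87 to 0.54 for Zic1 and −2.40 to 1.25 for Zic4. Sp8 was fitted only without N/D 1 and without N/D/S 2, and Zic1 and Zic4 only without N/D 1 and without N/D/S 1. In the remaining fits these genes did not pass the filter, so their ranges are not comparable with those above. The median of all genes ranged from −0.29 to 0.71. Genes past the adjusted threshold ranged from 0 to 2664 higher and from 0 to 245 lower, those at an unadjusted p under 0.05 from 1 to 3591 higher and from 2 to 483 lower, and those whose lines did not overlap from 1678 to 6405 higher and from 1734 to 4117 lower. Of the genes tested, 0 to 4 did not overlap towards N/D/S (4 of 6 without N/D/S replicate 2, namely Nr2f2, Prox1, Sp8 and Tshz1, beside 43.8% of all genes) and 0 to 3 towards N/D (3 of 8 without N/D replicate 1, namely Sp9, Zic1 and Zic4, beside 32.2%, and 3 of 7 without N/D/S replicate 1, namely Nr2f1, Nr2f2 and Tshz1, beside 32.7%).

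Quantile normalization turned Nr2f2 to 0.093, Prox1 to −0.48, Sp8 to −0.66 and the median of all genes to −0.049. Under it 2 of the 8 genes did not overlap towards N/D, beside 12.2% of all genes. The ratio of mean TPM gave 0.077 for Nr2f2. A pseudocount of 0.1 gave 0.24 for Zic1 and 0.70 for Zic4. Within replicate 1 alone the differences were 0.46 for Nr2f2, 1.47 for Tshz1, 0.29 for Zic1 and 0.51 for Zic4, and within replicate 2 alone −1.26 for Prox1, −2.01 for Sp8 and −1.62 for Sp9. Under the all-library filter the median was −0.15.

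The variance trend gave 5 genes higher and 1 lower at the adjusted threshold, none of them among the 9. At an unadjusted p under 0.05, genes higher and lower numbered 202 and 22 with the trend, 95 and 112 with no filter, 6 and 36 with the all-library filter, 38 and 34 with quantile normalization and 8 and 10 with median-of-ratios scaling. They were 14 higher with a pseudocount of 0.1 and 9 lower with the upper quartile. Genes whose lines did not overlap numbered 1774 higher with no filter and 458 higher with the all-library filter. By percentile in place of TPM, 5 of the 9 genes kept their place in the order. A replicate block cannot move the fold changes, since both lines have the same replicate numbers. Under it Nr2f1 kept −1.32 with a standard error of 1.34 and Zic4 kept −0.21 with one of 1.29. With the block 0 genes passed, and 3 higher and 6 lower genes had an unadjusted p under 0.05 in limma. No call among the 9 genes changed. The labels state no batch behind the numbers, although tables of one number share their symbols. Sp9 was 0.20 as a ratio of mean TPM.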
